A study of Glycine max with 3 samples.

Results

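The storage globulins of the soybean seed were followed through 10 gene models, 5 of glycinin and 5 of beta-conglycinin, out of the 66210 gene models counted in the series. The members were chosen by identifier: Glyma03g32030, Glyma03g32020, Glyma19g34780, Glyma10g04280 and Glyma13g18450 for glycinin, and Glyma10g39150, Glyma20g28460, Glyma20g28640, Glyma20g28650 and Glyma20g28660 for beta-conglycinin. Reads were counted in 3 laser-captured regions of seeds of Glycine max cv. Asgrow A3237, with 1 library per region. The embryo proper and the suspensor came from globular-stage embryos, in pods 0.5 to 1.2 cm long, and the seed coat parenchyma layer came from seeds 6.0 to 7.0 mm long at early maturation. No library had a treatment or a mutant allele. The seedling develops from the embryo proper, a short-lived stalk called the suspensor carries it, and the seed coat parenchyma is maternal tissue around both.

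Glycinin and beta-conglycinin are the most abundant proteins of the mature soybean seed and serve the seedling as a store of nitrogen and carbon. Glycinin is the legumin-type globulin, made as a precursor that is cut into an acidic and a basic chain, which stay joined by a disulphide bond. Beta-conglycinin is the vicilin-type globulin, a trimer of alpha, alpha-prime and beta subunits. Both are known to be made mainly in the cotyledons during seed maturation and deposited in protein storage vacuoles, under regulators of the LEC1, ABI3 and FUS3 kind. The families are encoded by a few genes each, some of them tandem copies. In the RefSeq table of assembly Glycine_max_v4.0, glycinin symbols are placed on chromosome 3 (GY1 and GY2), chromosome 10 (GY4), chromosome 13 (GY5) and chromosome 19 (GY3 and GY7), and beta-conglycinin symbols or synonyms on chromosome 10 (CG-1) and chromosome 20 (4 genes). That table matched 0 of the 10 identifiers, so no member is given a symbol or a subunit here.

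The libraries held 11603055 reads (embryo proper), 8365831 reads (suspensor) and 11894273 reads (seed coat parenchyma). Levels are given as CPM, the reads for each 1000000 reads of a library after edgeR TMM scaling, with 95% exact Poisson intervals that cover counting error only. No value has a replicate, so no test between regions was possible and every difference describes these libraries. The seed coat library also differed in stage, in section thickness (8 µm against 6 µm) and in microdissection instrument, which cannot be told apart from tissue. Identifiers stand without gene names in the tables, so the labelled tissues were not checked against marker genes. In such captured tissue, fewer cells with a transcript and less of it in each cell cannot be told apart.

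Storage globulin reads were few in every library. Both families together gave 658 reads in the seed coat parenchyma (45.7 CPM, interval 42.3 to 49.4), 93 reads in the suspensor (13.4 CPM, 10.8 to 16.4) and 120 reads in the embryo proper (10.4 CPM, 8.63 to 12.4). The seed coat sum was 4.40 times that of the embryo proper (interval 3.61 to 5.39) and 3.42 times that of the suspensor (2.75 to 4.30). The sums of the embryo regions lay close together, with a suspensor to embryo proper ratio of 1.28 whose interval of 0.969 to 1.70 includes equality.

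Reads were found for 6 of 10 members in at least 1 library, and 4 of 10 had none in all 3. The members without a read were Glyma19g34780 of glycinin and Glyma20g28460, Glyma20g28640 and Glyma20g28660 of beta-conglycinin. Across all gene models 41.1% had no read in any library, so that the members' share is near the background. A count of 0 was set at a floor of 3 reads, which stands for 0.209 CPM (seed coat parenchyma), 0.260 CPM (embryo proper) or 0.431 CPM (suspensor). At least 1 read was counted for 5 of 10 members in each library. Of all gene models, 52.1% had a read in the seed coat parenchyma, 41.4% in the suspensor and 46.7% in the embryo proper. With detection set at 3 reads and 1 CPM on the unscaled total, 3 members passed in the seed coat parenchyma (42.1% of all gene models), 4 in the suspensor (32.5%) and 2 in the embryo proper (36.8%). No source used here says how reads that match several near-identical genes were handled, so the split of reads among close copies, and a count of 0 in one of them, is uncertain.

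**Figure D1:**
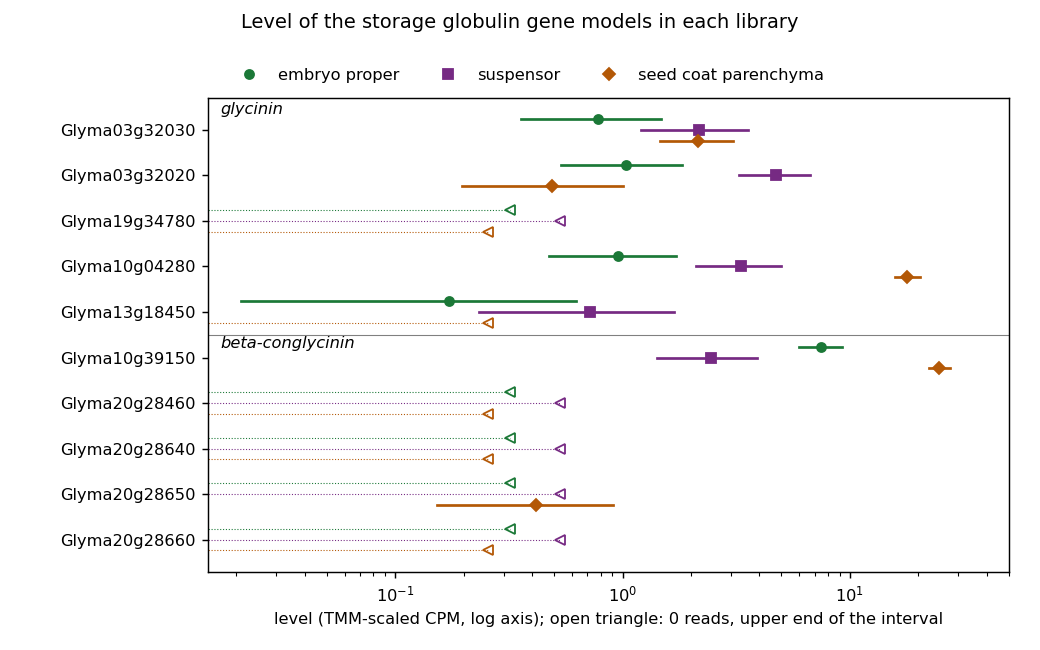
Level of each of the 10 gene models in the 3 libraries, as TMM-scaled CPM on a log axis. Filled points are levels, lines are 95% exact Poisson intervals, and open triangles mark 0 reads at the upper end of that interval. Glyma10g39150 and Glyma10g04280 are highest in the seed coat parenchyma, Glyma03g32020 is highest in the suspensor, and 4 gene models have no reads in any library.

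Among the glycinin gene models, Glyma10g04280 on chromosome 10 had the most reads. It had 258 reads in the seed coat parenchyma (17.9 CPM, interval 15.8 to 20.3), 23 in the suspensor (3.31 CPM, 2.10 to 4.96) and 11 in the embryo proper (0.954 CPM, 0.476 to 1.71). The seed coat was high and both embryo regions low, with no overlap of the seed coat interval with the others. The seed coat level was 18.8 times that of the embryo proper (interval 10.3 to 38.1) and 5.42 times that of the suspensor (3.54 to 8.71). Within the embryo, the suspensor level was 3.47 times that of the embryo proper (1.62 to 7.88).

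The adjacent chromosome 3 gene models Glyma03g32020 and Glyma03g32030 did not share that pattern. Glyma03g32020 had 7 reads in the seed coat parenchyma (0.487 CPM, interval 0.196 to 1.00), 33 in the suspensor (4.74 CPM, 3.26 to 6.66) and 12 in the embryo proper (1.04 CPM, 0.538 to 1.82). It was thus highest in the suspensor, at 4.56 times the embryo proper (2.29 to 9.69) and 9.75 times the seed coat parenchyma (4.24 to 26.1). Embryo proper and seed coat were not separated by counting error, with a ratio of 2.14 (0.776 to 6.41). Its neighbour Glyma03g32030 had 31 reads in the seed coat parenchyma (2.15 CPM, 1.46 to 3.06), 15 in the suspensor (2.16 CPM, 1.21 to 3.56) and 9 in the embryo proper (0.780 CPM, 0.357 to 1.48). Suspensor and seed coat stood at the same level, with a ratio of 1.00 (0.502 to 1.91), and each was 2.76 times the embryo proper, with intervals of 1.13 to 7.16 and 1.28 to 6.59. Of the reads of this chromosome 3 pair, Glyma03g32020 took 18.4% in the seed coat parenchyma (95% Wilson interval 9.22 to 33.4%), 68.8% in the suspensor (54.7 to 80.1%) and 57.1% in the embryo proper (36.5 to 75.5%). The seed coat share lay below both embryo shares with no overlap of intervals.

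The remaining glycinin gene models were at or near the floor. Glyma13g18450 on chromosome 13 had 0 reads in the seed coat parenchyma, 5 in the suspensor and 2 in the embryo proper. The ratio of suspensor to embryo proper was 4.14 with an interval of 0.678 to 43.5. Against the seed coat, set at 3 reads, the suspensor ratio was 3.45, and the lower end of the counting interval was 1.89. Glyma19g34780 on chromosome 19 had 0 reads in all 3 libraries.

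Summed over the family, glycinin had 296 reads in the seed coat parenchyma (20.6 CPM, interval 18.3 to 23.1), 76 in the suspensor (10.9 CPM, 8.61 to 13.7) and 34 in the embryo proper (2.95 CPM, 2.04 to 4.12). The sum is not affected by a split of reads among the listed glycinin gene models. It would be lowered if reads with several hits were discarded, and could change if they were shared with copies outside the list. Neither was tested. The suspensor sum was 3.71 times that of the embryo proper (2.44 to 5.73). Between these libraries, each of the 4 glycinin gene models with reads had the higher level in the suspensor. The share of all gene models with that direction was not counted. Over the 19940 gene models averaging 5 CPM or more, the median log2 difference, embryo proper minus suspensor, was 0.00. The shared direction is thus a description and not support. For Glyma13g18450, with 5 and 2 reads, the interval of 0.678 to 43.5 includes equality. The 4 gene models are not replicates of each other. The seed coat sum was 6.98 times that of the embryo proper (4.88 to 10.3) and 1.88 times that of the suspensor (1.46 to 2.46). With unscaled totals this last ratio was 2.74.

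The glycinin gene models contributed in different proportions in the embryo regions and in the seed coat. Glyma10g04280 took 87.2% of glycinin reads in the seed coat parenchyma (95% Wilson interval 82.9 to 90.5%), but 32.4% in the embryo proper (19.1 to 49.2%) and 30.3% in the suspensor (21.1 to 41.3%). Glyma03g32020 took 2.36% in the seed coat parenchyma (1.15 to 4.80%), 35.3% in the embryo proper (21.5 to 52.1%) and 43.4% in the suspensor (32.9 to 54.6%). For both gene models the seed coat share stood apart from the embryo shares, while the shares of the embryo regions overlapped. Glyma03g32030 took 26.5% of glycinin reads in the embryo proper (14.6 to 43.1%). Its share was 19.7% in the suspensor (12.3 to 30.0%) and 10.5% in the seed coat parenchyma (7.48 to 14.5%). The suspensor interval overlapped both others. With Glyma10g04280 left out, its shares were 39.1%, 28.3% and 81.6% in the same order. The low seed coat share thus rested on the reads of Glyma10g04280. These are shares of reads within a library and do not depend on scaling between libraries. Gene lengths are not in the tables, so they are not shares of transcripts.

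Beta-conglycinin reads came almost entirely from Glyma10g39150, on chromosome 10. It had 356 reads in the seed coat parenchyma (24.7 CPM, interval 22.2 to 27.5), 86 in the embryo proper (7.46 CPM, 5.96 to 9.21) and 17 in the suspensor (2.44 CPM, 1.42 to 3.91). The 3 intervals did not overlap, with the seed coat highest and the suspensor lowest. The embryo proper level was 3.05 times that of the suspensor (1.80 to 5.48), and the seed coat level was 3.32 times that of the embryo proper (2.62 to 4.25) and 10.1 times that of the suspensor (6.24 to 17.6). Over all libraries this gene model took 459 of the 465 beta-conglycinin reads, or 98.7% (95% Wilson interval 97.2 to 99.4%).

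The 4 beta-conglycinin gene models of chromosome 20 had almost no reads. Glyma20g28650 had 6 reads in the seed coat parenchyma (0.417 CPM, interval 0.153 to 0.908) and 0 in both embryo regions. With the embryo proper set at 3 reads its seed coat level was 1.60-fold higher. The lower end of the counting interval, 0.944-fold, was however below equality. Against the suspensor, also set at 3 reads, the ratio of 0.967 set no difference. Glyma20g28640 and Glyma20g28660, which stand on either side of it in identifier order, and Glyma20g28460, with 17 gene models listed between it and Glyma20g28640, had 0 reads throughout. Of these 17 gene models 9 had reads in at least 1 library.

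The order of the families thus differed between the embryo regions. Glycinin made up 45.0% of storage globulin reads in the seed coat parenchyma (95% Wilson interval 41.2 to 48.8%), 81.7% in the suspensor (72.7 to 88.3%) and 28.3% in the embryo proper (21.0 to 37.0%). No interval overlapped another, and these shares do not depend on scaling between libraries. They could change with the handling of reads with several hits in either family, which was not tested. Glyma10g39150 gave 100% of the beta-conglycinin reads in both embryo regions and 98.3% in the seed coat parenchyma. Only glycinin gene models were left out in turn. Leaving out Glyma03g32020, the glycinin gene model with the most suspensor reads, gave 20.4% in the embryo proper and 71.7% in the suspensor. Leaving out Glyma10g04280 lowered the seed coat share to 9.50%, so that the glycinin share there rested on that gene model.

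**Figure D2:**
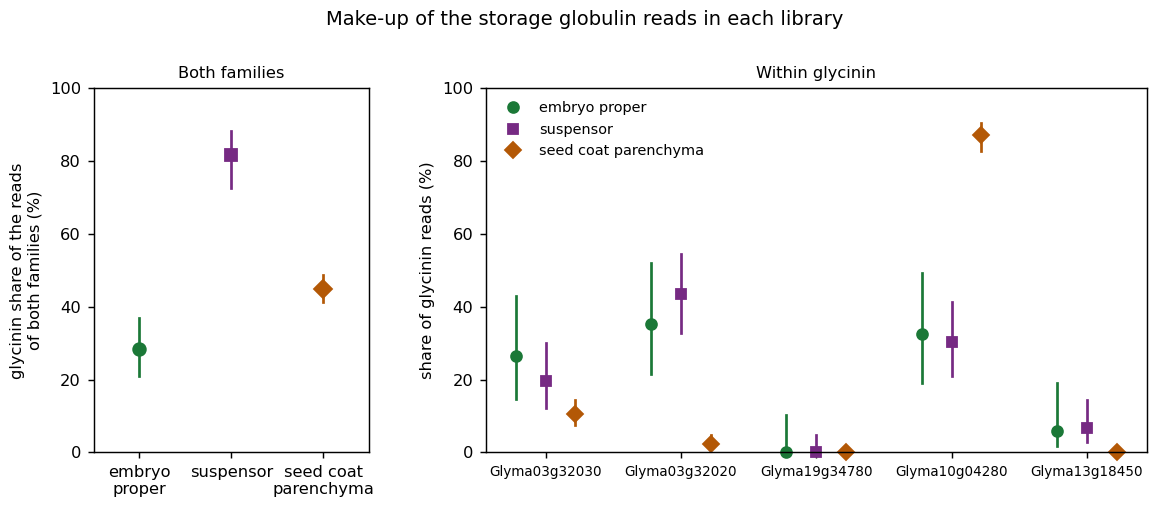
Left, glycinin reads as a percentage of the reads of both families in each library. Right, each glycinin gene model as a percentage of glycinin reads in each library. Points are shares and lines are 95% Wilson intervals; the glycinin share is 81.7% in the suspensor against 28.3% in the embryo proper, and Glyma10g04280 takes 87.2% of glycinin reads in the seed coat parenchyma.

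The same values were set against the 19940 gene models whose levels averaged 5 CPM or more. Only 2 of the 10 members, Glyma10g04280 and Glyma10g39150, passed this minimum, and both passed it through their seed coat level, so their counts are descriptions and not support. Differences were taken as log2(CPM + 1), a scale on which changes of low genes come out too small, and 4-fold was the size counted. The 3 comparisons share libraries, so they are not independent of each other.

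Between embryo proper and suspensor, 0 of 2 members differed by 4-fold or more in either direction. Of all gene models, 15.2% were that much higher in the embryo proper and 14.0% in the suspensor. Their log2 differences, embryo proper minus suspensor, were 1.30 for Glyma10g39150 and -1.14 for Glyma10g04280, beside a median of 0.00 over all gene models. The members thus lay on opposite sides of that median. Between suspensor and seed coat parenchyma, 2 of 2 members passed 4-fold with the seed coat higher, against 18.7% of all gene models, and 0 of 2 in the suspensor, against 14.9%. The log2 differences, suspensor minus seed coat, were -2.90 for Glyma10g39150 and -2.14 for Glyma10g04280, beside a median of 0.02. Between embryo proper and seed coat parenchyma, 1 of 2 members passed 4-fold with the seed coat higher, against 15.0% of all gene models, and 0 of 2 in the embryo proper, against 13.7%. This was Glyma10g04280, with a log2 difference, embryo proper minus seed coat, of -3.28, while Glyma10g39150 stood at -1.61, beside a median of 0.05.

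The balance of the background depended on scaling. Between suspensor and seed coat, TMM gave 2977 gene models past 4-fold on the suspensor side and 3726 on the seed coat side, and unscaled totals gave 2154 and 4973. Between embryo proper and seed coat the numbers were 2725 and 2993 with TMM and 2225 and 3695 with unscaled totals. Between embryo proper and suspensor they were 3028 and 2791 with TMM and 3552 and 2267 with unscaled totals. The members' counts at 4-fold were the same under both.

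**Figure D3:**
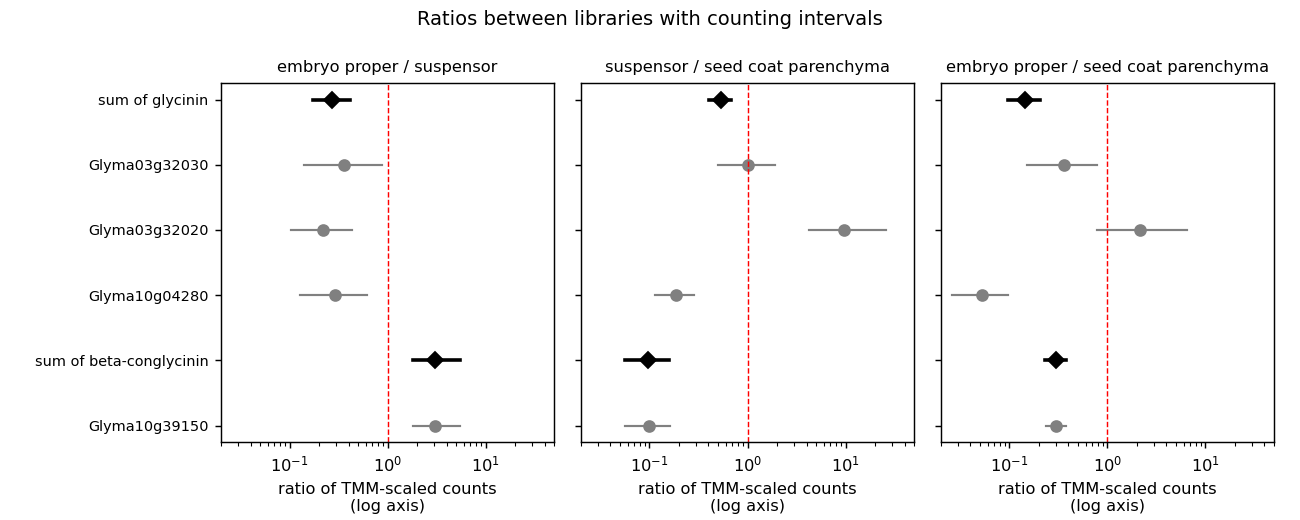
Ratios of TMM-scaled counts between libraries on a log axis, for the family sums (black diamonds) and the 4 gene models with reads in all 3 libraries (grey circles), with 95% counting intervals; the dashed line marks equality. Between embryo proper and suspensor the glycinin sum lies on the suspensor side (3.71-fold) and the beta-conglycinin sum on the embryo proper side (3.05-fold).

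The members with the most reads of each family were also placed in the order of all gene models with reads in a library, an order of reads and not of reads per length. Glyma10g39150 ranked 7219 of the 34521 gene models with reads in the seed coat parenchyma, 14571 of 30893 in the embryo proper and 19128 of 27389 in the suspensor. Glyma10g04280 ranked 9442 in the seed coat parenchyma, 24351 in the embryo proper and 17968 in the suspensor.

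The gene models with the most similar levels were found by the distance between the log2(CPM + 1) values over the 3 libraries. For Glyma10g39150 the nearest was Glyma15g04830, on chromosome 15, at a distance of 0.19, with 25.4 CPM in the seed coat parenchyma, 2.59 in the suspensor and 8.58 in the embryo proper. For Glyma10g04280 the nearest was Glyma18g52870, on chromosome 18, at a distance of 0.27, with 20.5, 2.87 and 1.13 CPM in the same order. A distance of 0.5 or less was found for 33 gene models around Glyma10g39150 and for 19 around Glyma10g04280. The files pair neither of these identifiers with a name.

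The gene models next to the members in identifier order, 3 on each side, numbered 42. Of these, 19 (45.2%) had reads in the seed coat parenchyma, 12 (28.6%) in the suspensor and 11 (26.2%) in the embryo proper. Over all gene models the shares were 52.1%, 41.4% and 46.7%. No read in any library was found for 22 neighbours (52.4%), against 41.1% of all gene models. With 5 neighbours on each side, the shares with reads were 55.7%, 38.6% and 37.1% in the same order of libraries. The neighbour with the most reads was Glyma20g28440, near Glyma20g28460 on chromosome 20, with 12768 reads in the seed coat parenchyma (887 CPM), 4479 in the suspensor (644 CPM) and 16264 in the embryo proper (1410 CPM). Around Glyma10g39150, by contrast, the 6 neighbours together had 110 reads in the seed coat parenchyma, 6 in the suspensor and 0 in the embryo proper.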

How the data were processed

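Each library has its own table, deposited by the authors, with the count of mapped reads per gene model, per the file headers. The values are whole numbers and were used as raw counts. The submitters' processing notes name Bowtie. Version, genome build, annotation, strand use and the treatment of reads with several hits: not given in the sources used here. Per the labels' protocols, 3 to 5 ng of RNA was amplified, followed by 15 PCR cycles and single-end reads of 76 nt. Reads without molecular identifiers are not independent molecules, so intervals and floors cover counting error only.

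Counts were scaled with edgeR 4.0.16 TMM factors in R 4.3.3 (0.994, 0.832 and 1.21 for embryo proper, suspensor and seed coat parenchyma). Ratio intervals are exact Clopper-Pearson intervals of 1 library's share of a gene's reads in both, and shares have Wilson intervals, all at 95%. Ratios against 0 reads use 3 reads per library as a floor. The added constant was 1 CPM. Python 3.11.15, NumPy 2.4.6, pandas 2.3.3, SciPy 1.17.1 and matplotlib 3.10.9 were used. The ratio intervals were tested on simulated Poisson counts of gene models averaging 5 CPM or more, a level that 8 of 10 members did not reach. A first coverage check on small groups failed, and coverage was then judged over all these gene models. Simulated counts of this kind hold no amplification error, so they test the interval code only. The members and the neighbour list were chosen with earlier results of these data known. Of other gene models, the text names the nearest profile for the member with the most reads in each family, if it had 50 reads or more, and the neighbour with the most reads. Alternatives were DESeq2 1.42.0 size factors, upper-quartile factors, unscaled totals, totals without the 50 most abundant gene models, other minimums, constants and fold sizes, an interval bound, thinning, other detection limits and 5 neighbours on each side.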

Additional observations from a re-analysis of the deposited data

How the results depend on the processing

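No paired analysis was possible because there is a single library of each region, and for the same reason no library could be left out. Leaving out glycinin gene models in turn from the reads of both families was added after seeing the data. All other alternatives were planned, among them leaving Glyma10g04280 out of the shares within glycinin. Of 241 alternative values, 196 stayed within 1.5 times the count or within the counting interval and 45 did not. No alternative value took a ratio of 4-fold or more to the other side of equality. The scalings differ too little for that to happen, so this says nothing about stability. All 52 values of the 13 single-member ratios stayed inside their intervals under the other 4 scalings. Most of those intervals are wide because reads were few, so staying inside them says little about scaling. The suspensor to seed coat ratio of Glyma03g32030, 1.00 with TMM, ranged from 0.688 to 1.05, so its direction is not set. Of the family ratios, only that of glycinin between seed coat and suspensor left its interval, at 2.74 with unscaled totals. Unscaled totals shifted the median log2 difference of all gene models to 0.23 (embryo proper minus suspensor), -0.54 (suspensor minus seed coat) and -0.25 (embryo proper minus seed coat).

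With the settings used, 2 members passed 4-fold with the seed coat above the suspensor. This became 0 with 5 CPM added and at 8-fold, and 1 by the interval bound. By that bound, 3363 of the 19940 gene models passed with the seed coat above the suspensor. Against the embryo proper, 1 became 0 with 5 CPM added, and 2 at 2-fold. At a mean of 20 CPM both counts were also 0, but no member was compared there. Glyma10g04280 averaged 7.40 CPM and Glyma10g39150 11.5 CPM, so that 0 follows from the minimum. Between the embryo regions, 0 of 2 became 1 of 2 on each side at 2-fold. Of the 19940 gene models, 5754 passed that size in the embryo proper and 5474 in the suspensor. With at least 1 read as the limit, 5 members passed in each library. That limit was met by 52.1% of all gene models in the seed coat, 41.4% in the suspensor and 46.7% in the embryo proper. The glycinin share of globulin reads became 20.4% (embryo proper) and 71.7% (suspensor) without Glyma03g32020, and 9.50% (seed coat) without Glyma10g04280.

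The background counts are given in pairs for embryo proper and suspensor, suspensor and seed coat, and embryo proper and seed coat. For other fold sizes and with 5 CPM added they are out of 19940 gene models. A minimum of 20 CPM, which leaves fewer gene models, gave 1068 and 1313, then 1601 and 1135, then 1507 and 1098. The number of gene models left by that minimum was not recorded, so no share is given. A size of 2-fold gave 5754 and 5474, then 5717 and 6082, then 5827 and 5473. A size of 8-fold gave 1458 and 1399, then 1697 and 2405, then 1230 and 1804. Adding 5 CPM gave 1485 and 1668, then 2020 and 2220, then 1560 and 1911. Without a minimum, the seed coat numbers, out of 66210 gene models, were 6340 against the suspensor and 4969 against the embryo proper. Depth limits every member with under 10 reads.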
